A study of Mus musculus with 2 samples.

Results

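The 8 genes described here encode the core of polyamine synthesis and its control around ornithine decarboxylase: Odc1, the antizymes Oaz1 and Oaz2, the antizyme inhibitor Azin1, the synthesis enzymes Amd1, Srm and Sms, and the acetyltransferase Sat1. They were picked by symbol out of the 28692 genes of the count tables. The set was chosen because Odc1 is high in Prox1-positive venous endothelial cells of these libraries, so the level of Odc1 in those cells is given as a description with no test. The data are 2 libraries of single-cell RNA counts from the mesentery of C57BL/6 mice at P8, 1 from control and 1 from Flcn iΔEC mice, in which Cdh5-BAC-CreERT2 deletes the floxed Flcn gene in endothelial cells. Each library holds bead-isolated CD31+ cells pooled from 3 mice, and the pups had received 40 μg of 4-hydroxytamoxifen under the skin 4 times, first on day 2 after birth, then on days 3.5 and 5, and last on day 6.5. The labels do not say which alleles the control mice carried. The paper states that its neonates were of both sexes. By the sex-linked counts given below, however, the control pool reads as male and the Flcn iΔEC pool as female. With 1 library per genotype no test between genotypes was possible. All intervals below are at 95% and cover counting error only, not the spread between mice.

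Putrescine, spermidine and spermine are small, positively charged molecules that bind nucleic acids and are needed by growing cells. Odc1 makes putrescine from ornithine and is the rate-limiting enzyme. Antizymes bind it and send it to the proteasome, and antizyme inhibitors, which resemble the enzyme but lack its activity, take the antizymes up. Amd1 provides the aminopropyl groups that Srm and Sms add to make spermidine and spermine, and Sat1 acetylates both, which marks them for breakdown or export.

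Antizyme messages are read through a stop codon by a shift of frame that polyamines promote, so the counts of Oaz1 and Oaz2 measure the message and not the amount of finished antizyme. The shift sites of both genes are shown because this is the step at which the pathway feeds back on Odc1. The capitals mark the last codon of the first frame and its stop codon, and the other bases are coding sequence. The sites, from GENCODE transcripts on GRCm38, the build called mm10 in the processing notes, lie on the plus strand at chr10:80828280-80828309 for Oaz1 and chr9:65686257-65686286 for Oaz2, and 28 of their 30 bases are alike.
Oaz1: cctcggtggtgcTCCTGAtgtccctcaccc
Oaz2: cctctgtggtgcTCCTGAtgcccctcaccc

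The control library held 6814 cells and the Flcn iΔEC library 4459 cells, with a median of 7283 and 8587 unique molecular identifiers (UMIs) per cell, and 6 cell barcodes occurred in both. Cells were sorted into classes by markers alone, and a class is called "-like" since it rests on rebuilt names. Endothelial cells numbered 448 and 773, and they were divided into lymphatic (LEC-like, split by Lyve1), venous (VEC-like), Prox1-positive venous-like, arterial (AEC-like, split by Gja5 into large and small arteries), capillary-like and high endothelial venule (HEV-like) cells. Prox1 is the transcription factor that sets lymphatic identity. The Prox1-positive venous-like class held 11 control and 86 Flcn iΔEC cells, against 78 and 123 VEC-like cells, and all 8 pan-endothelial markers were found in at least 20% of its cells in both libraries. Its Vwf, a marker high in veins here, stood at 712 UMI counts scaled to a total of 1000000 (CPM) in Flcn iΔEC mice. VEC-like cells there had 1468 CPM. Its Lyve1 was 2.74 CPM against 1227 in Lyve1-high LEC-like cells, but those were selected on Lyve1, so the gate set this contrast. In that library Lyve1 was found in 5.81% of cells of the class and 22.1% of Lyve1-low LEC-like cells, with a median of 0 in both. Low Lyve1 alone thus does not set the class apart from lymphatic cells. In 1 of the 86 cells hemoglobin and Alas2 made up 4388 of 10000 UMIs; without it Odc1 in the class was 2112 CPM. In HEV-like cells the LEC marker Ccl21a, which high endothelial venules also express, was 716 CPM in control and 3027 in Flcn iΔEC cells. Two-library levels there were 8.18 and 28.9 CPM for Prox1 (7 and 30 UMIs) and 4.67 and 26.0 CPM for Lyve1 (4 and 27 UMIs). Whether lymphatic cells or RNA were mixed into the class was not tested. The libraries differed in sex-linked genes, with 9 and 63462 UMIs of Xist and 15535 and 17 UMIs over 4 Y-linked genes in control and Flcn iΔEC mice, so sex and genotype cannot be told apart in any comparison of the libraries. Flcn itself had 22 UMIs (10.9 CPM) in control and 41 UMIs (13.6 CPM) in Flcn iΔEC VEC-like cells. Which exons the floxed allele removes is not given in the sources used here, and counts from the 3′ end check nothing where the end is kept.

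Odc1, on chromosome 12 at 17544794 to 17551505 of GRCm38, spanned a wide range between endothelial types in the control library. Levels are CPM over all cells of a class. The Lyve1-low LEC-like cells were highest at 655 CPM (608 to 706, 57 cells), followed by Lyve1-high LEC-like cells at 465 CPM (421 to 512, 37 cells). Capillary-like, HEV-like and VEC-like cells came next, at 311, 301 and 248 CPM. Capillary-like and HEV-like cells did not differ beyond counting error, with a ratio of 1.03 (0.882 to 1.21). Arterial cells were lowest, at 86.1 CPM (71.1 to 103) in large and 36.0 CPM (22.8 to 54.0) in small arteries. The highest of the 7 endothelial classes with at least 20 cells was thus 18.2-fold above the lowest. That lowest level, of small-artery cells, rests on 23 UMIs and is not read as expression below, so the span is uncertain. The 11 control cells that passed the Prox1-positive venous-like gate had 232 CPM (179 to 296), which did not differ from VEC-like cells beyond counting error (ratio 0.937, 0.710 to 1.22). These 11 cells were of more than 1 kind, as given below.

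**Figure D1:**
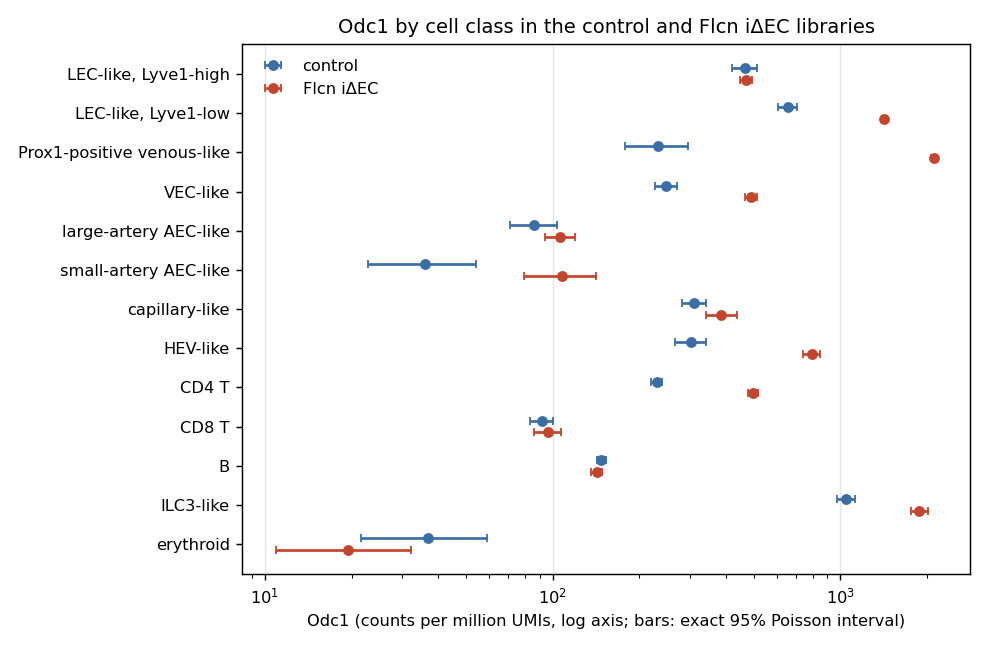
Odc1 in CPM (log axis) for each cell class, in the control (blue) and Flcn iΔEC (red) library, with exact 95% Poisson intervals. Prox1-positive venous-like cells stand at 232 CPM in control and 2122 in Flcn iΔEC mice, while CD8 T and B cells have nearly the same level in both.

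In the Flcn iΔEC library the order changed at the top. Prox1-positive venous-like cells had 2122 CPM of Odc1 (2073 to 2173, 86 cells), above the ILC3-like lymphocytes at 1880 and Lyve1-low LEC-like cells at 1421. The ratios between these neighbours were 1.13 and 1.32. HEV-like cells followed at 795 CPM, then VEC-like cells at 489, Lyve1-high LEC-like cells at 469.7 and capillary-like cells at 386. VEC-like and Lyve1-high LEC-like cells did not differ beyond counting error (ratio 1.04, 0.972 to 1.12). Large-artery and small-artery cells again had the lowest endothelial levels, at 106 and 108 CPM.

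The high level in Prox1-positive venous-like cells was carried by many cells. The median cell had 19.3 Odc1 UMIs per 10000, against 2.25 in Flcn iΔEC VEC-like cells, 1.63 in control VEC-like cells and 1.53 in the 11 control cells of the class. Of the 86 cells, 69.8% had 10 or more per 10000, compared with 13.8% of VEC-like cells in the same library and 3.85% in control. Capillary-like cells of the Flcn iΔEC library showed the other pattern, with a median of 0 per 10000 and 12.8% of cells at 10 or more. Odc1 in the class was 4.34-fold (4.10 to 4.59) the VEC-like level in the same library and 1.49-fold (1.45 to 1.54) that of Lyve1-low LEC-like cells. In that comparison of Prox1-positive venous-like with VEC-like cells, 8.89% of 8931 genes were at least 1.5-fold higher and 9.26% lower. Of the other 7 genes Srm alone was past 1.5-fold, with 53.3 against 29.9 CPM (ratio 1.78, 1.38 to 2.33). With clusters in place of gates its log2 ratio was 0.0037. Sat1 was lower in the Prox1-positive cells (ratio 0.735, 0.680 to 0.794). The ratios of Oaz1, Oaz2, Azin1 and Amd1 lay between 0.877 and 1.06, and Sms was at 0.714.

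Odc1 was higher at each step of Prox1 over the venous-like cells of the Flcn iΔEC library. The gate changes at 1 Prox1 UMI per 10000. Cells below it are all VEC-like, with a venous score of at least 8. Nearly all above it are Prox1-positive venous-like cells, which needed a score of only 2. The climb across that limit thus partly restates the contrast for which Odc1 was chosen. Odc1 was 467 CPM in the 97 cells with under 0.5 Prox1 UMIs per 10000 and 573 CPM in the 22 cells from 0.5 to 1. It was 1010 CPM in 25 cells from 1 to 2, 2064 CPM in 28 cells from 2 to 4 and 2903 CPM in 37 cells with 4 or more. Control venous-like cells had 269, 203, 223 and 141 CPM over the first 4 of these steps (53, 18, 10 and 6 cells), and the 2 control cells with 4 or more Prox1 UMIs had 386 CPM (225 to 618, 17 UMIs). Prox1-positive venous-like cells with under 5 UMIs per 10000 of the venous genes Vwf and Aplnr together also had more Odc1. In 41 such cells it was 2995 CPM (2903 to 3089), and in the other 45 it was 1516 CPM (1461 to 1572). The 41 cells had 170 CPM of Vwf and 457 CPM of Gja4, which is on the arterial marker list. The other 45 had 1088 and 83.7 CPM. Nr2f2, a venous marker, was 333 and 305 CPM, so the venous-like name is less secure for the 41 cells. The same holds for 3 of the 11 control cells, with 0 UMIs of Vwf and Aplnr. They had 2036 CPM of Prox1, 1990 of Gja4 and 321 of Odc1 (199 to 491, 21 UMIs). The other 8 control cells had 204 CPM of Prox1 and 204 of Odc1 (148 to 275). Clustering gave a like split of the Flcn iΔEC cells. In 36 cells of a cluster led by H19, an imprinted noncoding RNA, Odc1 was 3277 CPM. It was 1245 CPM in 34 cells of a cluster led by Aqp1, a water channel. Odc1 was itself among the 10 leading genes of the first. The shared library and the shared counts of these cells mean that the steps are a description.

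**Figure D2:**
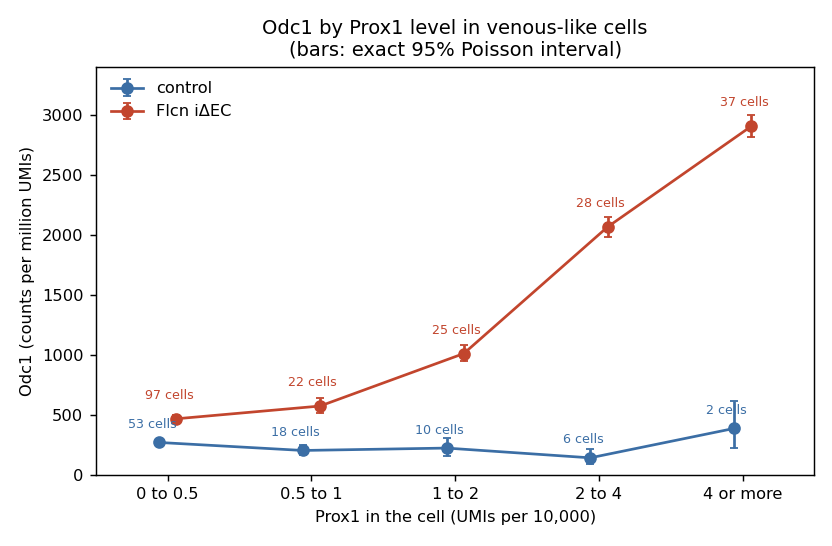
Odc1 in CPM (y axis) for VEC-like and Prox1-positive venous-like cells grouped by the Prox1 UMIs per 10000 of the cell (x axis), with exact 95% Poisson intervals and the number of cells. The Flcn iΔEC cells climb from 467 to 2903 CPM, and the control cells lie between 141 and 386 CPM, the highest from 2 cells. Steps under 1 hold only VEC-like cells, and the later steps of the Flcn iΔEC library hold nearly only Prox1-positive venous-like cells.

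Of the 7 endothelial classes with at least 20 cells in both libraries, 4 had Odc1 at least 1.5-fold higher in Flcn iΔEC mice with an interval above 1. Over all genes with at least 50 summed counts, 6.05% to 9.11% were at least 1.5-fold higher in these 7 classes and 11.2% to 23.5% lower, whatever their interval. VEC-like cells of the control library had 248 CPM (226 to 270) of Odc1 and those of Flcn iΔEC mice 489 CPM (464 to 515), a ratio of 1.98 (1.78 to 2.19). With clusters in place of gates its log2 ratio was 2.14, against 0.98. Ratios were 2.17 (2.01 to 2.35) in Lyve1-low LEC-like and 2.64 (2.29 to 3.05) in HEV-like cells. The fourth was small-artery cells, at 2.99 (1.79 to 5.13) from 23 and 50 UMIs. There clusters in place of gates turned the log2 ratio from 1.58 to -1.28, and the shares of cells with an Odc1 UMI overlapped those of erythroid cells, so no direction is read for them. Odc1 ratios were 1.01 (0.908 to 1.13) in Lyve1-high LEC-like, 1.23 (0.991 to 1.54) in large-artery and 1.24 (1.06 to 1.45) in capillary-like cells. With clusters the log2 ratio moved from 0.01 to 3.25 in Lyve1-high LEC-like cells and from 0.31 to -0.61 in capillary-like cells. Of the 4 lymphocyte gates, 2 were past the same ratio, where 3.44% to 9.06% of all genes were higher and 3.71% to 17.8% lower. Odc1 had a ratio of 1.80 (1.63 to 1.98) in ILC3-like cells and 2.16 (2.04 to 2.29) in the CD4 T gate, which held cells of more than 1 kind. CD8 T cells had a ratio of 1.05 (0.907 to 1.21) and B cells of 0.963 (0.908 to 1.02).

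The makeup of a class moved with several of these ratios. When cells were clustered without the polyamine genes, Odc1 in the CD4 T gate was concentrated in 1 cluster led by Il22, a cytokine of type 3 lymphocytes. Its cells went against the name of the gate. Cd3e, a part of the T cell receptor complex, was found in 4.85% of its gated control cells and 3.12% of its Flcn iΔEC cells, against 87.5% and 83.3% in the cluster led by Igfbp4, while Kit was found in 82.5% and 74.0%. The gate took these cells in through Trbc2 and Cd4, both found in 100% of them. The cluster held 8.25% of the gated cells of the control library and 19.2% of those of the Flcn iΔEC library. Inside it Odc1 was 1719 CPM in control and 2067 in Flcn iΔEC cells, a ratio of 1.20 (1.13 to 1.29). The Igfbp4 cluster, the most populous of the gate, had 60.1 and 72.1 CPM and a ratio of 1.20 (0.966 to 1.48). Both ratios were smaller than the 2.16 of the whole gate. ILC3-like cells fell mostly in the Il22 cluster too, where 49 control cells had 1610 CPM of Odc1 and 40 Flcn iΔEC cells 2309 CPM (ratio 1.43, 1.30 to 1.58).

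Lyve1-low LEC-like cells also differed in makeup. A cluster led by Slc41a1, with Aqp8, Plat and Cldn11, a tight junction gene, among its leading genes, held 13 (22.8%) of these cells in control and 110 (50.7%) in Flcn iΔEC mice. Control cells inside it had 1997 CPM (1819 to 2187) of Odc1 and Flcn iΔEC cells 2055 CPM (2002 to 2109), a ratio of 1.03 (0.936 to 1.13). The largest control share, 59.6%, fell in a cluster led by Igfbp5 with 202 CPM, which held 2 of the 217 Flcn iΔEC cells. A further 32.3% of the Flcn iΔEC cells fell in a cluster led by Fgl2 with 679 CPM and no control cell of the class. In HEV-like cells, the cluster that held 14 control and 26 Flcn iΔEC cells had a ratio of 2.37 (1.96 to 2.89). In both capillary-like clusters with at least 10 cells per library the direction was the opposite of the class, with ratios of 0.777 (0.610 to 0.986) and 0.289 (0.0850 to 0.787), the second from 5 Flcn iΔEC UMIs. VEC-like cells of both libraries could not be matched this way, since 62.8% of the control cells fell in a cluster led by Rab27b and 71.5% of the Flcn iΔEC cells in another led by Aqp1. Odc1 in those was 172.5 and 390.5 CPM. Lyve1-high LEC-like cells were also held by different clusters: 55.0% of the Flcn iΔEC cells, at 677 CPM, fell in the Fgl2 cluster, which held no control cell of the class. The cluster with cells of both libraries held 35.1% of control and 15.3% of Flcn iΔEC cells, with 65.2 and 97.8 CPM and an interval of the ratio from 0.830 to 2.87. Genotype and library cannot be told apart in any of these values.

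**Figure D3:**
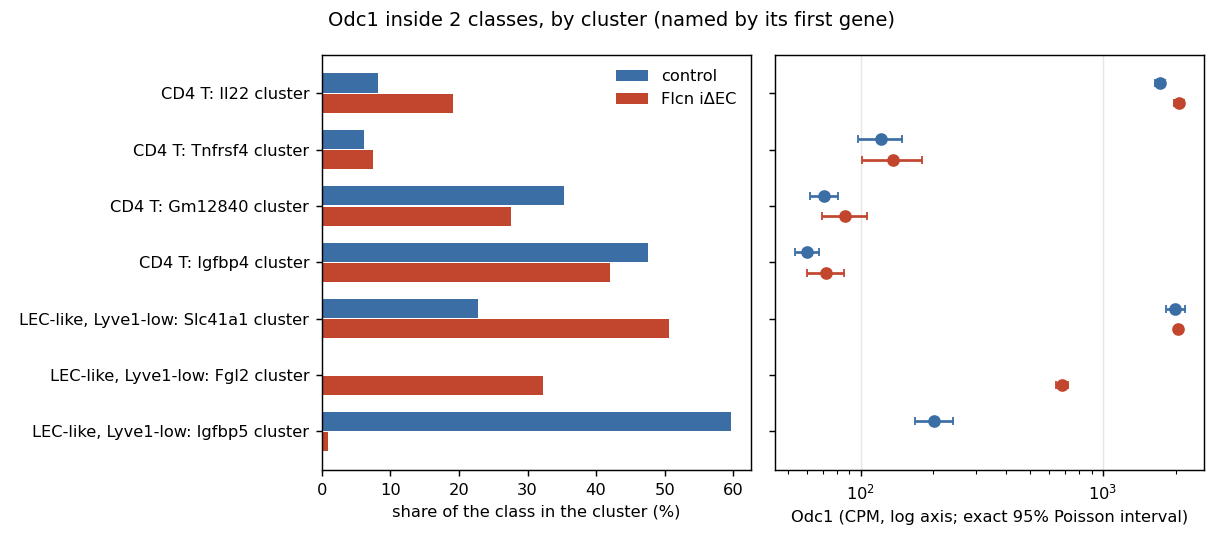
Left, share (%) of cells of the CD4 T gate or of Lyve1-low LEC-like cells that fell in each cluster, named by its leading gene; right, Odc1 in CPM (log axis, exact 95% Poisson intervals) of those cells, control in blue and Flcn iΔEC in red. In the Il22 and Slc41a1 clusters both libraries have between 1719 and 2067 CPM, while the shares of cells differ.

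Odc1 was at a like level in dividing and other endothelial cells. Cells with at least 3 UMIs over a list of cell cycle genes had 307 CPM against 290 CPM in the other endothelial cells of the control library (ratio 1.06, 0.974 to 1.15), and 954 against 948 CPM in the Flcn iΔEC library (1.01, 0.977 to 1.04). With a limit of 6 UMIs the ratio was 1.17 (1.07 to 1.28) in control, where the interval was above 1, and 0.994 (0.961 to 1.03) in Flcn iΔEC mice. Among Prox1-positive venous-like cells, 31 cycling cells had 2097 CPM and the 55 others 2144 CPM (ratio 0.978, 0.933 to 1.03). Cycling cells were deeper, with medians of 37760 and 21170 UMIs in the Flcn iΔEC library. Control capillary-like cells differed, with 528 CPM in 20 cycling and 216 CPM in 82 other cells (ratio 2.45, 2.01 to 2.98). In B cells the ratio was 1.40 (1.24 to 1.57) in control and 1.35 (1.20 to 1.52) in Flcn iΔEC mice, and in the Flcn iΔEC library Lyve1-high LEC-like cells had a ratio of 0.714 (0.641 to 0.793).

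After each cell was thinned to 2000 UMIs, an Odc1 UMI was found in 76 of 86 Prox1-positive venous-like cells (88.4%, 79.7 to 94.3, exact Clopper-Pearson interval). The share was 48.0% (38.9 to 57.2) in Flcn iΔEC and 34.6% (24.2 to 46.2) in control VEC-like cells. Without thinning these shares were 100%, 90.2% and 88.5%, at median depths of 33740, 18280 and 22600 UMIs. Erythroid cells, in which Odc1 UMIs can come from free RNA, had 0 of 32 cells in control, which allows a share of up to 9.38% (3 counts of the total), and 3.85% (0.469 to 13.2) in Flcn iΔEC mice, at median depths of 14630 and 14060 UMIs. The small-artery shares of 4.26% (0.520 to 14.5) in control and 11.5% (2.45 to 30.2) in Flcn iΔEC mice overlapped that background, and were not read as expression.

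The antizyme Oaz1, on chromosome 10, was the most even of the 8 genes. It ranged from 918 to 1187 CPM over the endothelial classes of the control library and from 756 to 1048 CPM in the Flcn iΔEC library, where the highest was 1.39-fold the lowest. ILC3-like cells had 1771 and 1947 CPM. Between libraries Oaz1 was lower in all 7 endothelial classes compared, with ratios of 0.747 to 0.972, none past 1.5-fold. The median of all genes was lower too in each of these classes, by log2 ratios of -0.05 to -0.20, and Oaz1 stood at percentiles 23.4 to 59.4 of them. In Lyve1-low LEC-like cells it was 1012 CPM in control and 756 in Flcn iΔEC cells (ratio 0.747, 0.699 to 0.799), where Odc1 was higher. Oaz2, the second antizyme on chromosome 9, separated endothelium from lymphocytes. It was 71.7 to 235 CPM over control endothelial classes and 15.3 to 31.2 CPM over control lymphocyte classes, ranges that did not overlap. The same was seen in Flcn iΔEC mice, with 70.9 to 239 and 14.6 to 38.2 CPM. Small-artery cells were highest at 234.7 and 239 CPM, with a ratio between libraries of 1.02 (0.789 to 1.31).

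**Figure D4:**
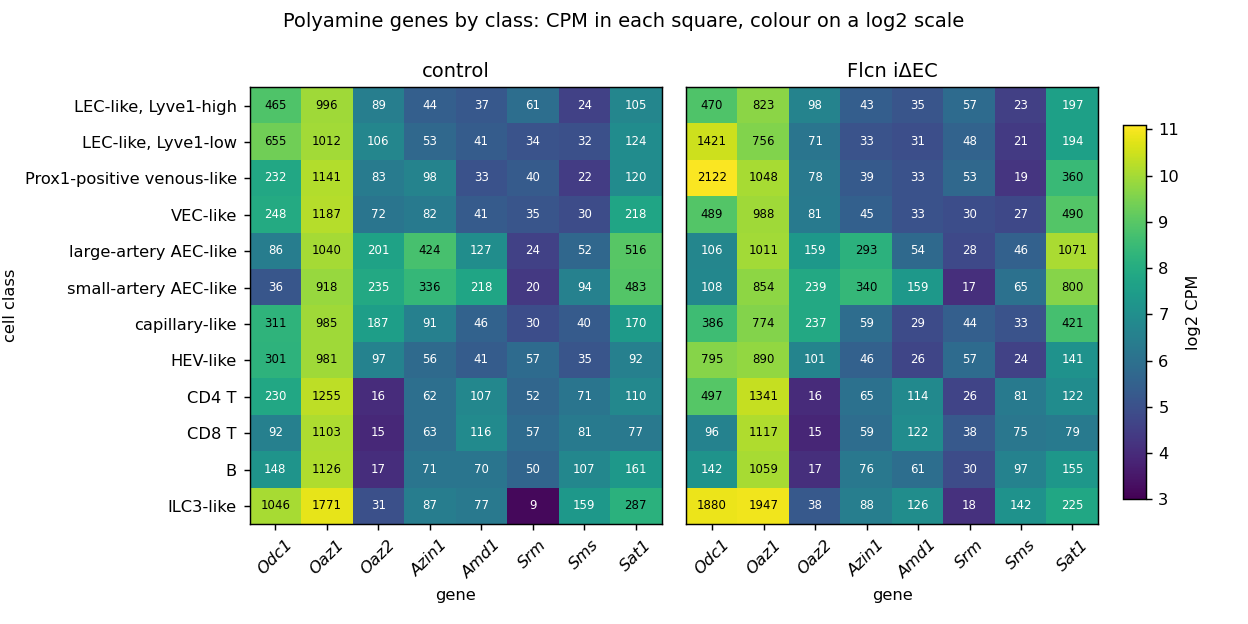
CPM of the 8 genes (columns) in each cell class (rows), control on the left and Flcn iΔEC on the right, with colour on a log2 scale. Azin1 and Sat1 are high in arterial rows where Odc1 is low. Amd1 is too, except in large-artery cells on the right, at 54.4 CPM. Oaz2 is low in all 4 lymphocyte rows.

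Azin1, the antizyme inhibitor on chromosome 15, had an arterial pattern. It was 424 CPM in large-artery and 336 CPM in small-artery cells of the control library, and 44.0 to 97.8 CPM in the other endothelial classes. In Flcn iΔEC mice the arterial values were 293 and 339.8 CPM and the others 33.3 to 59.3 CPM. It was lower in Flcn iΔEC mice in 6 of the 7 endothelial classes, past 1.5-fold with an interval below 1 in 3 of them. In VEC-like cells it was 81.6 CPM in control and 44.9 in Flcn iΔEC cells (ratio 0.550, 0.435 to 0.695). Ratios were 0.627 (0.465 to 0.858) in Lyve1-low LEC-like and 0.649 (0.441 to 0.936) in capillary-like cells. Of all genes, 11.8% in VEC-like, 23.5% in Lyve1-low LEC-like and 11.2% in capillary-like cells were at least 1.5-fold lower. Within clusters shared by both libraries the ratio was 0.778 (0.417 to 1.61) in Lyve1-low LEC-like cells. It was 0.638 (0.307 to 1.25) and 0.485 (0.185 to 1.15) in capillary-like cells, and all of these cluster intervals included 1. Large-artery cells were at 0.691 (0.620 to 0.771), and at 0.587 (0.521 to 0.662) within the 1 cluster that held most of them in both libraries. The 4 lymphocyte classes lay between 0.941 and 1.06.

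Amd1, the decarboxylase of S-adenosylmethionine on chromosome 10, shared the arterial pattern. In control mice it was 217.5 CPM in small-artery and 126.5 CPM in large-artery cells, against 32.6 to 46.4 CPM in the other endothelial classes. The T cell gates also had over 100 CPM, with 107 in CD4 T and 116 in CD8 T cells. Large-artery cells had 54.4 CPM in Flcn iΔEC mice, a ratio of 0.430 (0.343 to 0.539) that was 0.641 (0.477 to 0.865) within their main cluster. The other endothelial ratios were 0.622 to 0.942, none past 1.5-fold with an interval below 1. In ILC3-like cells Amd1 was higher, with 76.7 and 126 CPM from 59 and 56 UMIs (ratio 1.64, 1.12 to 2.41). Within the Il22 cluster the interval included 1, with a ratio of 1.36 (0.899 to 2.07) in ILC3-like cells. Cells of the CD4 T gate in that cluster had 0.998 (0.763 to 1.30). Amd2, a near-identical copy had at most 4.69 CPM in any class; reads that match both copies cannot be told apart, so the Amd1 level is uncertain. Srm, the spermidine synthase on chromosome 4, was 20.3 to 61.0 CPM in control endothelial classes, highest in Lyve1-high LEC-like and lowest in small-artery cells. Its endothelial ratios between libraries were 0.846 to 1.46, with none past 1.5-fold. In lymphocytes it was lower in Flcn iΔEC mice: 50.2 and 29.8 CPM in B cells (ratio 0.593, 0.526 to 0.666), 51.5 and 25.5 CPM in the CD4 T gate (0.495, 0.400 to 0.609; 0.593, 0.444 to 0.782 in its Igfbp4 cluster), and 57.4 and 38.1 CPM in CD8 T cells (0.663, 0.535 to 0.818). ILC3-like cells held 7 and 8 UMIs of it. Sms, the spermine synthase, was 21.7 to 93.9 CPM in control endothelial classes and 70.8 to 159 CPM in lymphocytes. It lies on the X chromosome. Its 7 endothelial ratios were 0.649 to 0.980, and 1 of them, in Lyve1-low LEC-like cells, was past 1.5-fold with an interval below 1 (0.649, 0.441 to 0.980).

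Sat1, the spermidine and spermine acetyltransferase on the X chromosome, was higher in Flcn iΔEC mice in all 7 endothelial classes compared, each time past 1.5-fold with an interval above 1. Control large-artery cells had 516 CPM and those of Flcn iΔEC mice 1071 CPM (ratio 2.08, 1.91 to 2.26), and 218 and 490 CPM in VEC-like cells (2.25, 2.02 to 2.51). Capillary-like cells had 169.5 and 421 CPM (2.48, 2.08 to 2.97). The lowest ratio, 1.52 (1.15 to 2.03), was in HEV-like cells, with 92.3 and 141 CPM. The 4 lymphocyte classes had ratios of 0.782 to 1.11, among them B cells with 161 and 155 CPM (0.963, 0.911 to 1.02), and their range did not overlap the endothelial one. The part of the sex difference between the libraries in these ratios was not tested. Over all X-linked genes in VEC-like cells the median log2 ratio was -0.08, and it was -0.08 over autosomal genes. In the clusters that held at least 10 cells of a class in each library, Sat1 was higher in large-artery cells (2.04, 1.85 to 2.25), in the Lyve1-low LEC-like cluster with Cldn11 (2.15, 1.42 to 3.41) and in HEV-like cells (1.77, 1.19 to 2.72). The 2 capillary-like clusters had ratios of 2.62 (1.89 to 3.66) and 1.28 (0.918 to 1.77), and the Lyve1-high LEC-like cluster 1.58 (0.938 to 2.78).

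**Figure D5:**
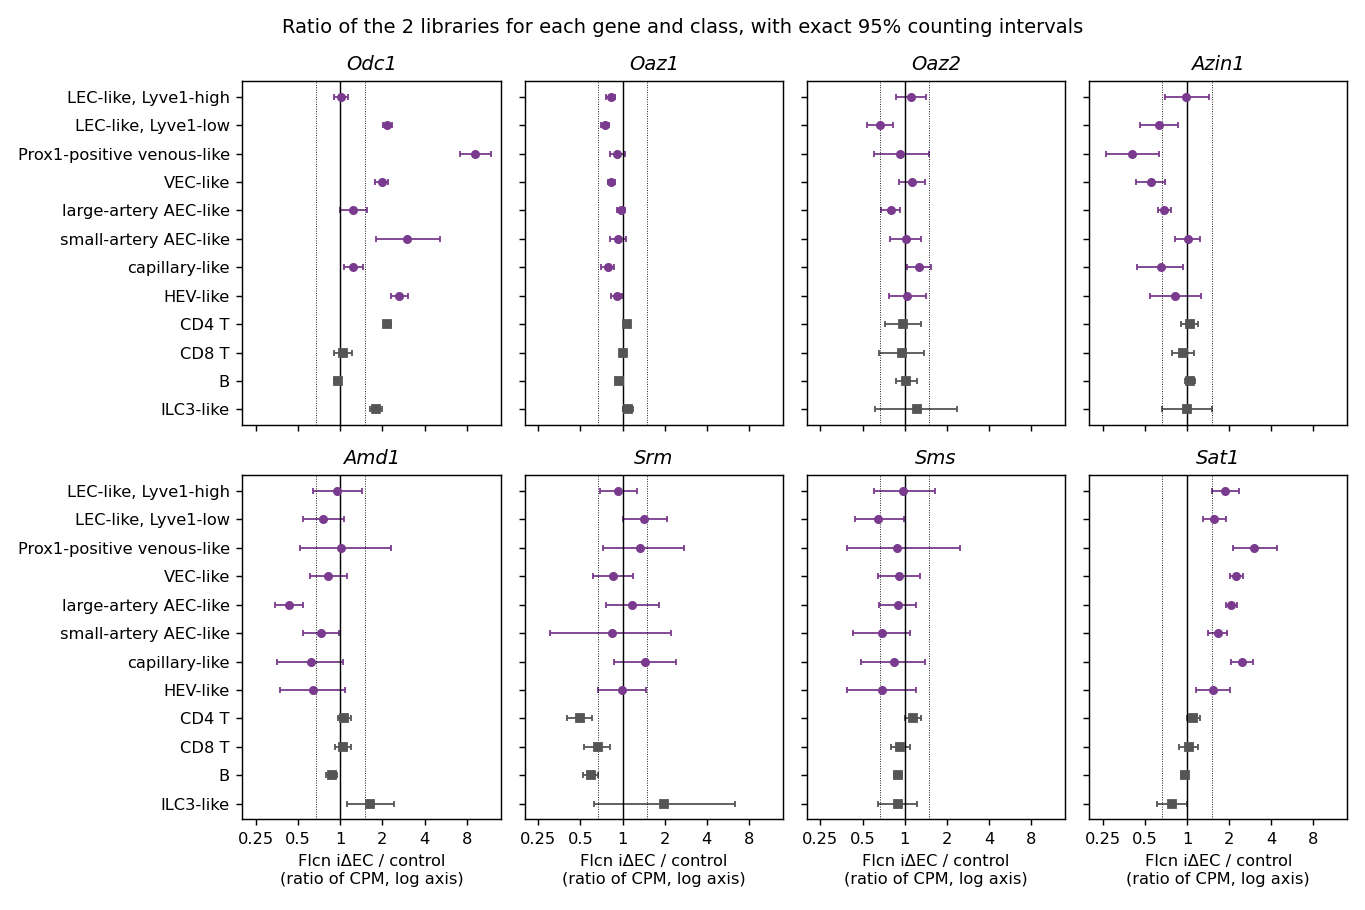
Ratio of Flcn iΔEC to control CPM (log axis, exact 95% counting intervals) for each gene, with endothelial classes as circles and lymphocyte classes as squares, the solid line at 1 and dotted lines at 1.5-fold. Sat1 lies to the right of 1 in all endothelial classes and between 0.782 and 1.11 in lymphocytes, and Odc1 is split within both groups.

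For counts across all genes, the subtypes were joined into VEC-like, LEC-like and AEC-like cells. Of the 8 genes, Odc1 and Sat1 were higher by at least 1.5-fold in all 3, with joined Odc1 ratios of 1.98, 1.81 (1.70 to 1.92) and 1.52 (1.25 to 1.87). Azin1 was lower in VEC-like cells and Amd1 in AEC-like cells (0.446, 0.373 to 0.531). The shares of all genes past this ratio were 7.91% higher and 11.8% lower in VEC-like cells, 8.17% and 20.1% in LEC-like cells, and 6.25% and 15.6% in AEC-like cells. The median log2 ratio of the 8 genes was -0.19, -0.27 and -0.17, beside -0.08, -0.21 and -0.15 over all genes tested. The arterial Odc1 ratio depends on how large and small arteries are mixed. It was 1.23 (0.991 to 1.54) in large arteries and 2.99 in small arteries, where no direction is read. The LEC-like ratio joins 1.01 in Lyve1-high and 2.17 in Lyve1-low cells.

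A list of 36 further genes of the pathway covers supply of ornithine and methionine, oxidation, transport, hypusination of Eif5a, which uses spermidine, and the Myc family, known inducers of Odc1. In VEC-like cells 18 of them had at least 50 summed counts. Slc3a2, the heavy chain of amino acid transporters, was higher, with 79.1 CPM in control and 165 in Flcn iΔEC cells (ratio 2.09, 1.74 to 2.51). Lower were Oat, the mitochondrial enzyme that uses or makes ornithine, with 428 and 156.5 CPM (0.366, 0.326 to 0.410), and Arg1, arginase, with 18.8 and 7.97 CPM (0.425, 0.244 to 0.726). In AEC-like cells 15 were measured. Slc3a2 was again higher (139.7 and 269 CPM, ratio 1.93, 1.68 to 2.21). Mtap, which salvages methionine from the by-product of polyamine synthesis, and Atp13a3, a polyamine transporter, were lower, at ratios of 0.604 (0.423 to 0.861) and 0.591 (0.490 to 0.714). In LEC-like cells, with 24 measured, 0 were higher and 1 was lower, Aldh18a1 of proline and ornithine synthesis (0.580, 0.371 to 0.933). Slc3a2 was at 0.796 (0.649 to 0.982) there. Median log2 ratios of the list were 0.02, 0.05 and 0.03 in VEC-like, LEC-like and AEC-like cells. Eif5a differed little between libraries, with ratios of 1.03, 0.966 and 1.01.

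Myc was scarce in venous cells. VEC-like cells had 8 and 7 UMIs of it, or 3.95 and 2.33 CPM, and Prox1-positive venous-like cells of Flcn iΔEC mice had 29 UMIs (8.84 CPM, 5.92 to 12.7). Mycn was 11.3 CPM (7.94 to 15.5) in these cells and 4.65 CPM (2.54 to 7.80) in VEC-like cells of the same library. B cells, where Odc1 was 148 and 142 CPM, had 142 and 126 CPM of Myc.

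Over the 23 class and library groups of at least 20 cells, the genes with profiles most like Odc1 included Hnrnpa0 (Pearson's r of log2(CPM + 10) 0.82), Uchl5 (0.79), Stard10 (0.79) and Stard7 (0.78), among 6078 genes that reached 50 CPM and were not markers. Hnrnpa0, an RNA-binding protein, ran from 522.5 to 791 CPM, a far narrower span than that of Odc1. The groups share libraries, so these are descriptions. Among the 8 genes, Azin1 (-0.64) and Amd1 (-0.56) had profiles opposite to that of Odc1, Sms was at -0.31, and Oaz1, Srm, Oaz2 and Sat1 were between -0.14 and 0.23. Amd1 and Sms were the pair most alike, with 0.77.

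RefSeq promoter windows on GRCm38.p6, from 250 bases before to 50 after the start of a gene, were at hand for 6 of the 8 genes, 7 windows in all. The E-box CACGTG, which reads the same on both strands and is the core of sites bound by Tfe3 and Myc, was in 1 of them, a window of Sms. Over all 32851 windows 7.15% hold it. The window of Odc1 does not contain these letters, and sequence outside the windows was not searched.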

How the data were processed

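The authors used a 3′ droplet kit, and Cell Ranger 3.0, named with the mm10 build in the submitters' processing notes, gave the UMI table of each library. The deposited values are UMI counts without normalization, and all cells were kept. The 8 genes, the lists and the markers were chosen with earlier results of these data known.

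The analysis ran on Python 3.11.15 (pandas 2.3.3, scipy 1.17.1, numpy 2.4.6). Endothelial cells had at least 2 UMIs of Cdh5, at most 2 of Ptprc and at least 10 over 8 endothelial markers. Scores per 10000 UMIs then gave Lyve1-high or Lyve1-low LEC-like (5 genes, 2; Lyve1, 2), HEV-like (4), AEC-like (Gja5 and Sema3g, 1), capillary-like (10), VEC-like (5 genes, 8) and Prox1-positive venous-like cells (Prox1 of 1 and 3 UMIs, venous score of 2). Prox1 lay within 1.5-fold of its limit in 6.70% (control) and 10.6% (Flcn iΔEC) of endothelial cells, and the venous score in 24.1% and 37.1%. Cutoffs were set on markers after the cells had been seen.

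Counts were summed per class and library, scaled to CPM, and given exact Poisson, conditional or Clopper-Pearson intervals. A ratio of 1.5 in genes with at least 50 summed counts was the size named. The computation was tested on simulated counts. Clusters (scanpy 1.11.5, Leiden, resolution 1, 30 dimensions) left out the polyamine genes. Scrublet called 142 control and 37 Flcn iΔEC cells doublets, none of them in the named endothelial classes. Named genes were the 8, pathway genes past the ratio with an interval off 1, the 5 profiles most like Odc1 (1 is not reported here), and markers; Eif5a, Myc, Mycn, Flcn and the genes leading clusters were named after their values were seen. Depth was 64639756 and 60805779 UMIs. Alternatives were clusters, stricter gates and filters, other scaling, thinning and limits.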

Additional observations from a re-analysis of the deposited data

How the results depend on the processing

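No paired analysis was possible because each genotype had 1 library, and for the same reason no replicate could be left out. Clusters in place of marker gates gave Odc1 levels of 2916 CPM in Prox1-positive venous-like and 736 CPM in VEC-like Flcn iΔEC cells, and 167 CPM in control VEC-like cells. The log2 ratios between libraries were then 2.14 in VEC-like and 1.58 in Lyve1-low LEC-like cells, and -1.28 in small-artery cells, where the sign was reversed. Against VEC-like cells the log2 ratio was 1.99 for Prox1-positive venous-like and 0.99 for Lyve1-low LEC-like cells. Scaling without mitochondrial, ribosomal protein and hemoglobin genes gave 2697, 640 and 308.5 CPM in the 3 venous groups. The mean over cells gave 2339 and 417 CPM in the Flcn iΔEC groups, a log2 ratio of 1.27 between libraries in Lyve1-low LEC-like cells, and 2.49 and 1.80 against VEC-like cells. A Cdh5 limit of 4 UMIs gave 2057 CPM in Prox1-positive venous-like cells. A Prox1 limit of 2 per 10000, chosen after seeing the data as were the alternatives without cycling cells, without cells of many erythroid UMIs and by cluster within a class, gave 2500 and 561 CPM, a log2 ratio of 1.16 between libraries in VEC-like cells and 1.34 for Lyve1-low LEC-like over VEC-like cells.

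A limit of 6 cycling UMIs gave a log2 ratio of 0.23 for cycling over other control endothelial cells. Thinning to 1000 UMIs gave shares with an Odc1 UMI of 74.4%, 30.1% and 14.1% in the 3 venous groups, and no thinning 100%, 90.2% and 88.5%. Past 2-fold, the 8 genes counted 1 higher and 0 lower in VEC-like, 0 higher and 0 lower in LEC-like, and 1 higher and 1 lower in AEC-like cells. The pathway list then counted 0 lower in LEC-like and 0 higher and 0 lower in AEC-like cells. With at least 20 summed counts the pathway list counted 3 higher and 4 lower in VEC-like and 6 higher and 4 lower in AEC-like cells. Shares of all genes at these settings are not given, so nothing is read from these counts. The cause of these shifts was not tested.

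Each genotype is 1 pool of 3 mice, so the spread between mice is not known. Genes with few UMIs, such as Srm in ILC3-like cells and Myc in venous cells, cannot show small differences at this depth.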
